A study of Rattus norvegicus with 12 samples.

Results

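Genes that mark cortical inhibitory interneurons were followed across 12 RNA sequencing libraries of rat cerebral cortex. The list held 9 gene symbols (Gad1, Gad2, Pvalb, Lhx6, Calb1, Calb2, Reln, Dlx1 and Dlx6), and its members were the rows of the deposited count table with those symbols. Of the 9, 8 were found among the 17268 symbols of the table, and Pvalb was not analysed here. All rats were adult male Sprague Dawley rats, with 3 rats and 3 libraries in each of 4 groups. Sham rats underwent the operation without a clot, and in Model rats a blood clot placed in the middle cerebral artery gave an embolic stroke. The rt-PA rats had the same stroke and received the clot-dissolving enzyme rt-PA (recombinant tissue type plasminogen activator) at 10 mg/kg, 6 h after it. The rt-PA+Acu rats had the stroke, acupuncture at GV26 and PC6 at 2 h, and the same rt-PA at 6 h. No group received acupuncture without rt-PA, and the hour at which cortex was taken for sequencing, as well as how much infarct each piece held, is not given in the sources used here.

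Inhibitory interneurons are the local neurons of the cortex that release gamma-aminobutyric acid (GABA). They are born in the ganglionic eminences under the homeodomain factors of the Dlx family, migrate into the cortex, and settle as classes that are told apart by calcium-binding proteins and peptides. Gad1 and Gad2 encode the glutamate decarboxylases GAD67 and GAD65, which make GABA from glutamate. Lhx6 is a LIM homeodomain factor of the parvalbumin and somatostatin classes. Calb1 (calbindin) and Calb2 (calretinin) are cytosolic calcium buffers, and Calb1 is also made by some excitatory neurons. Reln encodes reelin, a secreted glycoprotein that guides neuronal layering and is kept in interneurons of the adult cortex. The cortex sampled here was bulk tissue, so fewer interneurons and less RNA per interneuron cannot be told apart.

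Both decarboxylase genes moved together after stroke and Dlx1 moved the other way, so the sequences before their starts are printed first. They are RefSeq promoter windows of build GRCr8, from 250 bases before the start of the gene to 50 bases after it. The counts themselves were made on build mRatBN7.2, and no position was carried from one build to the other. Windows were at hand for 5 of the 8 members (Gad1, Gad2, Lhx6, Reln and Dlx1), and Calb1, Calb2 and Dlx6 had none. Capitals mark matches, on either strand, to 7 searched motifs.
Gad1, chr3:75777202-75777501, plus strand: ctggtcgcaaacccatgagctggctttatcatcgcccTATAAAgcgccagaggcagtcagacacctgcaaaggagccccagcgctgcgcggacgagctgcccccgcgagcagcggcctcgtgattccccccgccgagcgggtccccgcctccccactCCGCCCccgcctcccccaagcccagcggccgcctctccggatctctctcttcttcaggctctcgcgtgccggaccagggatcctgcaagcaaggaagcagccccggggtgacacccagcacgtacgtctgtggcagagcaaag
Gad2, chr17:89671468-89671767, plus strand: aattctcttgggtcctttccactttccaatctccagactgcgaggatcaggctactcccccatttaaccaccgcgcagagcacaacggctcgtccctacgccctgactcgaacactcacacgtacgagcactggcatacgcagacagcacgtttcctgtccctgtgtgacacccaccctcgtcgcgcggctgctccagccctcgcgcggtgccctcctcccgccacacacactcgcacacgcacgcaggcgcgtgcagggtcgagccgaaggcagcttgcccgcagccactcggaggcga
Dlx1, chr3:76763614-76763913, plus strand: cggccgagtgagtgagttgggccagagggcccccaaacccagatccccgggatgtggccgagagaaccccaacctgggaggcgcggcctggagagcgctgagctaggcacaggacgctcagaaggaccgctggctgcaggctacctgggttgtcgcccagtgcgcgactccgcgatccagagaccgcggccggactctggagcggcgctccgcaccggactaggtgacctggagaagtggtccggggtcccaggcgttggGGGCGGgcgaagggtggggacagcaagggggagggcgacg

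The motifs were a cyclic AMP response element (TGACGTCA, in 1.83% of all 33469 promoter windows), its shorter form (TGACG, in 21.2%, which lies inside the longer one), an AP-1 site (TGANTCA, in 7.33%), a homeodomain site (TAATTA, in 5.36%), a TATA box (TATAAA, in 14.2%), a GC box (GGGCGG, in 33.1%) and an E-box (CACGTG, in 6.42%). Gad1 held 1 TATAAA at 213 bases before the start and 1 GC box at 93 bases before it, Gad2 held no match to any of the 7, and Dlx1 held 1 GC box inside the transcribed part. GC content was 67.7% in the Gad1 window, 63.7% in that of Gad2 and 70.3% in that of Dlx1, beside a median of 51.7% over all windows. A match describes letters only and was not tested as a binding site.

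Total counts per library lay between 11678450 and 13616935, and levels are CPM, each count as a share of its library size after scaling by the TMM method of edgeR. Levels of different genes are not compared with each other, because the table gives no gene lengths. The cortical origin of the libraries was checked against markers, and some libraries stood apart. All 14 excitatory neuron markers had counts in every library. Sham replicates 2 and 3 carried striatal genes. Drd2, the dopamine D2 receptor, was at 48.8 and 34.3 CPM in them, against 1.73 to 5.41 in the other 10 libraries, and the adenosine receptor Adora2a was at 75.2 and 58.0 CPM, against 3.36 to 9.50. The 19 striatal markers summed to 2152 and 1662 CPM in these Sham libraries, to 1001 in Sham replicate 1 and to between 572.3 and 751.7 in the other 9. In rt-PA+Acu replicate 3, genes of olfactory bulb neurons were high. Eomes was at 7.86 CPM there and at no more than 0.338 in any other library, Cdhr1 was at 119.5 CPM against at most 21.0, and the 8 olfactory bulb markers, a list chosen after this library was seen to stand apart, summed to 174.1 CPM against 11.8 to 27.7 elsewhere. Results of the members that rest on these libraries are given with and without them, and those of the gene lists only in part. Whether the pieces held striatum or olfactory bulb was not tested beyond these genes.

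**Figure D1:**
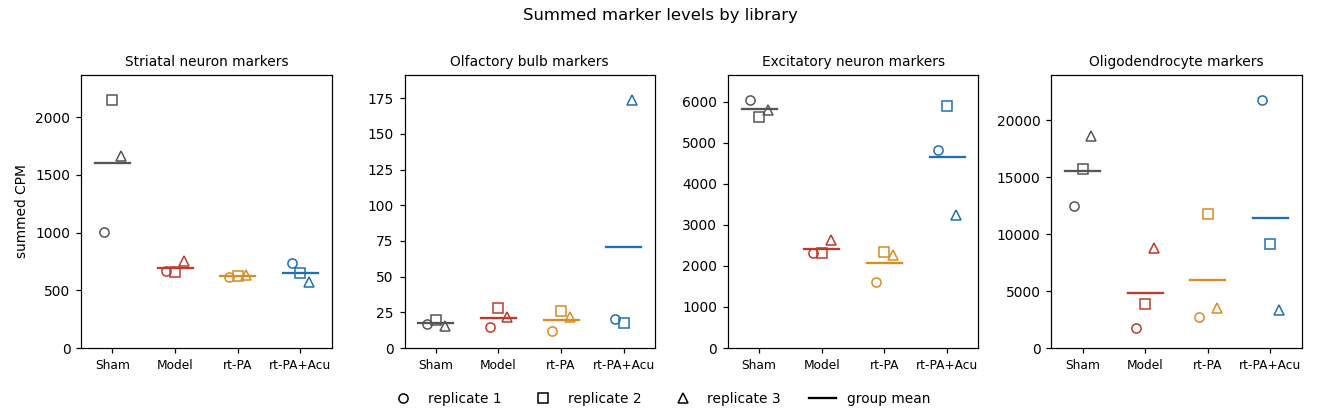
Summed CPM of striatal (19 genes), olfactory bulb (8), excitatory neuron (14) and oligodendrocyte (8) markers in each of the 12 libraries, with 1 point per library, symbols for the replicate number and lines for the group means. Sham replicates 2 and 3 lie highest in the striatal panel and rt-PA+Acu replicate 3 lies alone in the olfactory bulb panel, at 174.1 CPM.

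The first comparison, Model vs Sham, asks what stroke did to these genes. Both GABA-making enzymes rose and 3 identity genes of migrating and mature interneurons fell. Gad1 rose 1.83-fold and Gad2 1.86-fold, while Calb2 fell 2.36-fold, Dlx1 2.13-fold and Dlx6 2.32-fold. For Dlx6 the groups overlapped, and with Sham replicate 1 as the only Sham library its log2 fold change was -0.14. Lhx6, Calb1 and Reln did not pass the test. A gene was called where the adjusted p (edgeR's quasi-likelihood test, Benjamini-Hochberg adjustment over 12884 genes) was under 0.05 and the log2 fold change was beyond 1 in size. By this rule 3 of 8 members were called, all lower, beside 21.5% of all genes tested. At any fold change 5 members passed the adjusted p. Of these 2 were higher, beside 27.3% of all genes, and 3 lower, beside 26.6%. The median log2 fold change was -0.19 over the 8 members and 0.01 over all genes.

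Gad1 stood at 289.2, 263.7 and 247.3 CPM in Sham replicates 1, 2 and 3, at 543.6, 516.2 and 392.8 CPM in Model, at 472.1, 473.0 and 544.5 in rt-PA, and at 307.2, 352.3 and 554.5 in rt-PA+Acu. Every Model and rt-PA library lay above every Sham library, and rt-PA+Acu spread from near Sham to the top of all 12. From Sham to Model the mean went from 266.7 ± 21.1 to 484.2 ± 80.3 CPM (SD, n = 3), a log2 fold change of 0.87 (SE 0.13, adjusted p = 0.000876, edgeR's quasi-likelihood test).

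Gad2 was likewise higher in both stroke groups without acupuncture. It was at 84.2, 96.2 and 85.3 CPM in Sham, at 187.7, 183.1 and 120.7 in Model, at 133.5, 165.3 and 192.2 in rt-PA, and at 92.3, 136.4 and 142.2 in rt-PA+Acu. Sham did not overlap Model or rt-PA, and the lowest rt-PA+Acu library lay inside the Sham range. The log2 fold change from Sham to Model was 0.90 (SE 0.17, adjusted p = 0.00237, edgeR's quasi-likelihood test). Model replicate 3 was the lowest Model library for both decarboxylases. With Sham replicate 1 as the only Sham library, the fold change was 0.74 for Gad1 (adjusted p = 0.0572) and 0.96 for Gad2 (adjusted p = 0.0596). In that fit the 3 Model libraries alone supply the spread and the lone Sham library is assumed to vary like them, so its p-values carry no measure of the spread in Sham. The adjusted p was passed upward by 10.8% and downward by 12.1% of all genes there, and by neither decarboxylase.

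**Figure D2:**
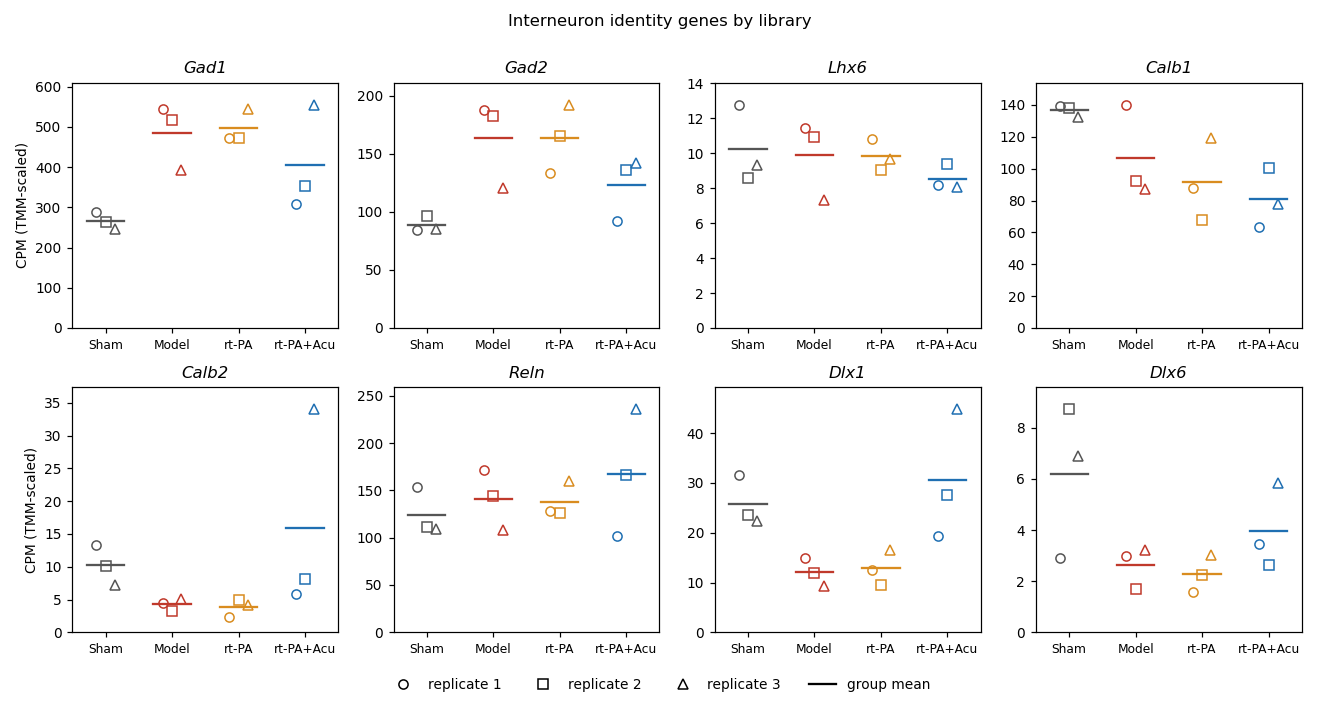
CPM of the 8 interneuron identity genes in each library, 1 panel per gene with its own axis from 0, by group, with symbols for the replicate number and lines for the group means. Gad1 and Gad2 are higher in all Model and rt-PA libraries than in Sham, Dlx1 and Calb2 are lower in them, and rt-PA+Acu replicate 3 is the top library for Calb2, at 34.1 CPM, and for Dlx1, at 44.8 CPM.

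Dlx1, a homeodomain factor needed for the migration and survival of interneurons, was at 31.5, 23.6 and 22.5 CPM in Sham and at 14.9, 11.8 and 9.34 in Model. It stayed there in rt-PA, at 12.6, 9.47 and 16.5 CPM, and stood at 19.4, 27.5 and 44.8 in rt-PA+Acu. Neither stroke group without acupuncture overlapped Sham, and all rt-PA+Acu libraries lay above all Model and rt-PA libraries. The log2 fold change from Sham to Model was -1.09 (SE 0.21, adjusted p = 0.00297, edgeR's quasi-likelihood test), and with Sham replicate 1 as the only Sham library it was -1.39, a value given for its size, since the spread is then that of Model alone. The adjusted p of Dlx1 stayed under 0.05 in all 14 alternatives of the Model vs Sham fit.

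Calb2, the calretinin gene, marks a share of the vasoactive intestinal peptide interneurons of the cortex and also granule and periglomerular neurons of the olfactory bulb. It had 83 to 165 counts per Sham library and was at 13.3, 10.2 and 7.25 CPM. In Model it was at 4.50, 3.30 and 5.12 CPM, in rt-PA at 2.36, 4.95 and 4.13, and with acupuncture at 5.81, 8.11 and 34.1. Sham lay above all Model and rt-PA libraries, whereas the rt-PA+Acu mean of 16.0 ± 15.7 CPM (SD, n = 3) was set by replicate 3. The log2 fold change from Sham to Model was -1.24 (SE 0.28, adjusted p = 0.00624, edgeR's quasi-likelihood test). With Sham replicate 1 alone it was -1.63, again with the spread of Model only. It passed in 13 of 14 alternatives and not in 1 fit over all 12 libraries, where the spread of the rt-PA+Acu libraries is part of the error (adjusted p = 0.0857).

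Dlx6, the partner of Dlx5 in a second Dlx cluster, was the weakest of the calls. It was at 2.91, 8.73 and 6.90 CPM in Sham, that is 36, 114 and 79 counts, and at 2.98, 1.69 and 3.22 in Model. The groups overlapped, and the higher Sham values were those of replicates 2 and 3, the libraries with striatal genes. The log2 fold change was -1.22 (SE 0.43, adjusted p = 0.0425, edgeR's quasi-likelihood test), but with Sham replicate 1 alone it was -0.14. It passed in 7 of 14 alternatives. Dlx6 stood at 1.59, 2.22 and 3.02 CPM in rt-PA and at 3.45, 2.62 and 5.84 in rt-PA+Acu.

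Lhx6 was almost level. It ran from 8.57 to 12.8 CPM in Sham, 7.35 to 11.5 in Model, 9.04 to 10.8 in rt-PA and 8.08 to 9.41 in rt-PA+Acu, so all 4 groups overlapped in pairs. Its Model vs Sham log2 fold change was -0.04 with an approximate 95% interval (1.96 SE on either side) from -0.50 to 0.43. Reln was at 109.1 to 153.1 CPM in Sham and 107.6 to 171.7 in Model, with a log2 fold change of 0.19 (interval -0.18 to 0.57). It stood at 125.7 to 159.4 CPM in rt-PA and, with acupuncture, at 101.3, 165.8 and 235.8, again highest in replicate 3. Calb1 was tight in Sham, at 139.4, 137.9 and 132.5 CPM, and wider in Model, at 140.0, 92.3 and 87.4 CPM, with a log2 fold change of -0.35 (adjusted p = 0.121, edgeR's quasi-likelihood test). Model replicate 1 alone kept the Sham level, and without it the value was -0.60 (adjusted p = 0.00122).

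**Figure D3:**
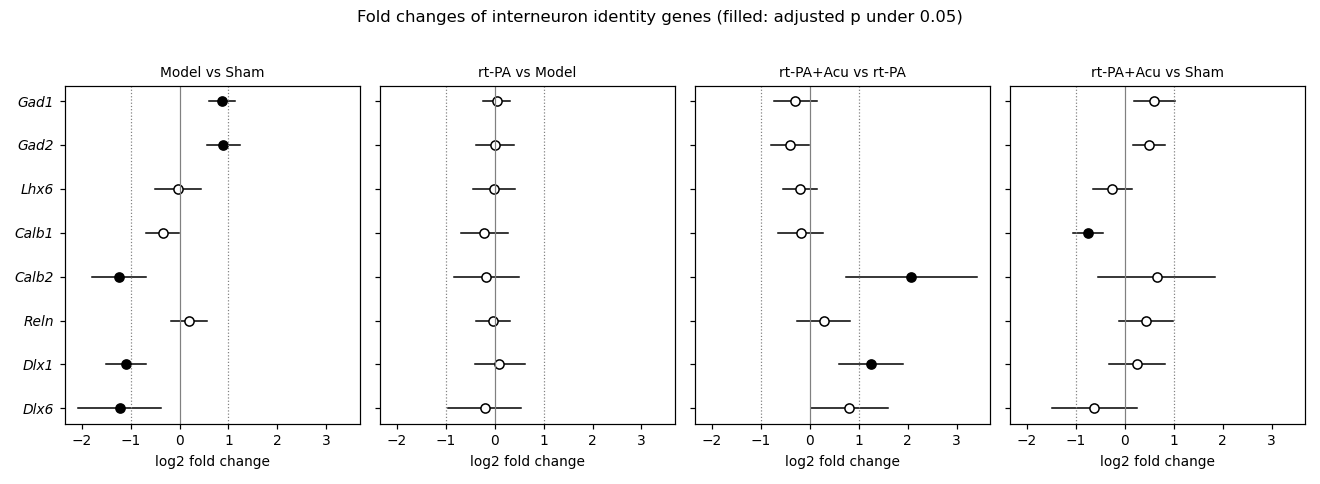
Log2 fold changes of the 8 genes in the 4 comparisons, with bars of 1.96 SE on either side, filled points for an adjusted p under 0.05 and dotted lines at -1 and 1. The bars rest on a normal approximation and can exclude 0 where the test does not pass, as for Dlx6 in the comparison of rt-PA+Acu with rt-PA, and no gene is filled in rt-PA vs Model.

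Other neuronal and glial RNA moved in the same libraries. Of the 14 excitatory neuron markers 10 fell and 1, Slc17a6, rose, beside 26.6% and 27.3% of all genes. Their summed level was 2317 to 2626 CPM in Model against 5630 to 6047 in Sham. The 13 pan-neuronal markers summed to 8266 to 8413 CPM against 8762 to 9569. Oligodendrocyte markers summed to 1719 to 8814 CPM in Model against 12450 to 18600 in Sham, and infiltrating myeloid cell markers to 226 to 339.8 against 72.1 to 89.3. Of 8 tested myeloid markers 5 passed higher and none lower (27.3% and 26.6% of all genes), and S100a8, S100a9 and Csf3r did not pass. The part of these shifts in the changes of the interneuron genes was not tested.

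The interneuron genes were therefore also set against the excitatory markers, as log2 CPM minus the mean log2 CPM of the 14 markers, which itself was lower by 1.04 in Model. On this scale the difference between Model and Sham was 1.89 for Gad1, 1.9 for Gad2, 1.22 for Reln, 0.99 for Lhx6 and 0.65 for Calb1, each with groups that did not overlap. The exact two-sided permutation p was 0.1 for each of these 5 genes, and a design of 3 against 3 allows no smaller one. For Dlx1 the difference was -0.06, for Dlx6 -0.06 and for Calb2 -0.16, each with overlapping groups (exact permutation p = 1.0, 0.8 and 0.6). Against the pan-neuronal markers in place of the excitatory ones, Gad1 was higher by 1.04 and Gad2 by 1.05, Calb1 changed sign to -0.20, and Dlx1, Dlx6 and Calb2 were at -0.91, -0.91 and -1.01. The difference of Dlx1, Dlx6 and Calb2 was thus close to 0 on the first scale and near -1 on the second. A change of reference shifts every gene by the same amount, so the differences of Lhx6 and Reln were also smaller on the second scale. A family of 32 such differences (8 genes in 4 comparisons) was computed and none could pass 0.05 in this design.

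**Figure D4:**
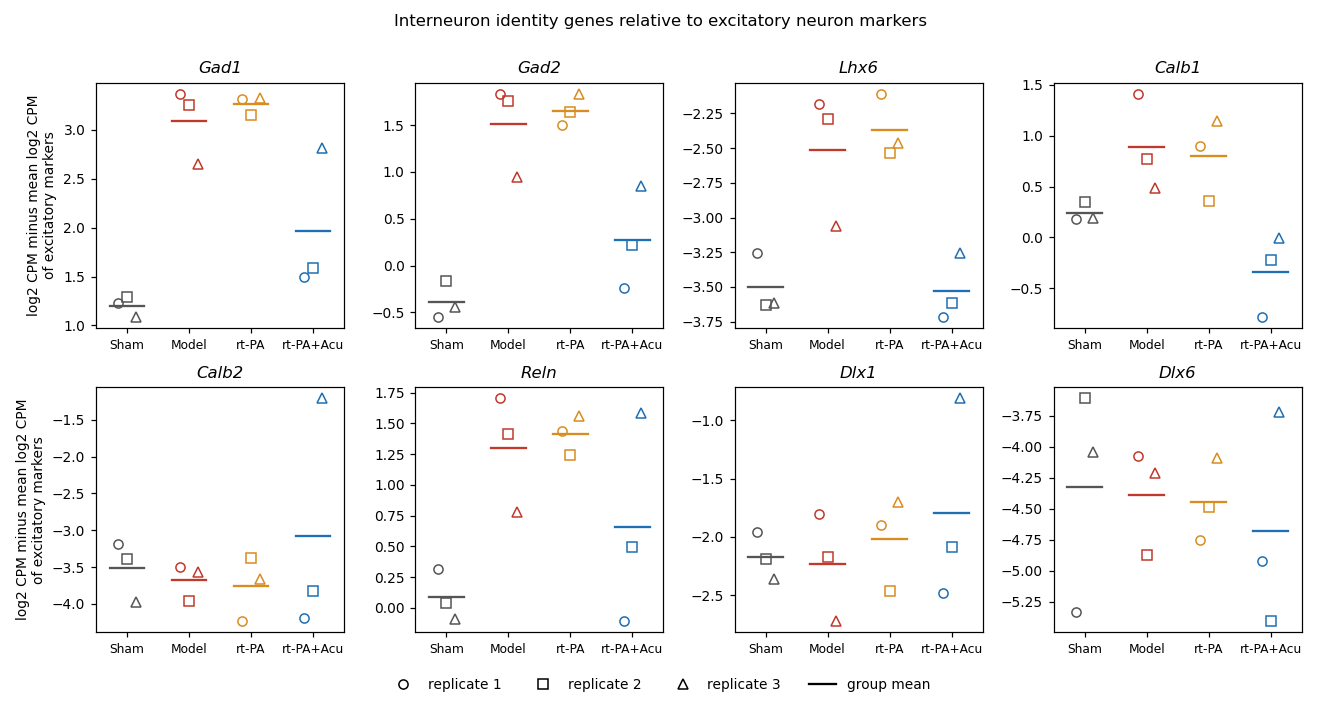
Log2 CPM of each interneuron gene minus the mean log2 CPM of the 14 excitatory neuron markers, per library, with symbols for the replicate number and lines for the group means. Gad1, Gad2, Lhx6 and Calb1 lie higher in all Model than in all Sham libraries and higher in all rt-PA than in all rt-PA+Acu libraries, while Dlx1 and Dlx6 overlap in both pairs of groups.

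What rt-PA alone did was asked by rt-PA vs Model. None of the 8 members passed the adjusted p in edgeR or in DESeq2, and their log2 fold changes ran from -0.21 to 0.10. Of all 12941 genes edgeR called 0%, and the share for DESeq2 is not given here. The paper, which used DESeq2, reports differentially expressed genes for rt-PA against Model. Across all genes 1284 had an unadjusted p under 0.05 in edgeR. The interval of the difference was -0.23 to 0.31 for Gad1, -0.39 to 0.39 for Gad2 and -0.44 to 0.42 for Lhx6, which leaves room for changes of that size.

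The addition of acupuncture to rt-PA was examined by rt-PA+Acu vs rt-PA. Calb2 and Dlx1 were higher with acupuncture, and no member was lower past the test. The 2 calls among 8 members stand beside 15.3% of all 12999 genes. Dlx1 was 30.6 ± 13.0 CPM in rt-PA+Acu and 12.8 ± 3.53 in rt-PA (SD, n = 3), with groups that did not overlap and a log2 fold change of 1.25 (SE 0.33, adjusted p = 0.0245, edgeR's quasi-likelihood test). Calb2 had a log2 fold change of 2.08 (SE 0.68, adjusted p = 0.0486, edgeR's quasi-likelihood test), and passed in 6 of 13 alternatives. Dlx1 passed in 10 of 13, and lost the adjusted p without rt-PA replicate 1 (1.24, adjusted p = 0.0752), without rt-PA replicate 2 (1.07, adjusted p = 0.0649) or without rt-PA+Acu replicate 2 (1.33, adjusted p = 0.0571).

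Markers of other cells moved in the same comparison. Of 9 infiltrating myeloid cell markers 8 passed lower with acupuncture (median log2 fold change -4.24, or -2.74 with Mmp8 set at the bound that a floor of 3 counts per library allows), and their sum was 75.8 to 118.9 CPM in rt-PA+Acu against 314.4 to 560.0 in rt-PA, with Mmp8, the neutrophil collagenase gene, at 0 in all 3 rt-PA+Acu libraries. Of 6 endothelial markers 5 passed lower (median -1.54), with sums of 91.3 to 100.7 CPM against 276.1 to 402.2. Beside these counts, 17.7% of all genes passed lower. The part of these shifts in the values of Dlx1 and Calb2 was not tested.

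Much of the rise in Calb2, and a smaller part of that in Dlx1, rested on rt-PA+Acu replicate 3, the library with olfactory bulb genes. Without it no member was called (beside 19.0% of 13184 genes) and 2 passed the adjusted p. Dlx1 rose by a log2 fold change of 0.88 (adjusted p = 0.0391), beside 20.1% of all genes passing upward, and Gad1 fell, with a log2 fold change of -0.58 (adjusted p = 0.0122), beside 21.0% passing downward. Calb2 was at 0.87 (adjusted p = 0.0973). With all 3 libraries the Gad1 value had been -0.29 (adjusted p = 0.328). Gad2 was at -0.51 (adjusted p = 0.102), beside -0.41 (adjusted p = 0.152) with all 3 libraries. The neighbouring genes of both Dlx clusters had the same high library. Dlx2, which lies next to Dlx1, was at 6.81 CPM in rt-PA+Acu replicate 3 and at 1.98 to 3.75 in the other 11 libraries, and Dlx5, next to Dlx6, was at 6.74 there and at 1.66 to 5.74 elsewhere. Neither passed the test of rt-PA+Acu against rt-PA (adjusted p = 0.234 and 0.735).

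Relative to the excitatory markers, which were higher by 0.96 with acupuncture, the difference was -1.30 for Gad1, -1.38 for Gad2, -1.16 for Lhx6 and -1.14 for Calb1. The groups did not overlap for these 4 genes (exact permutation p = 0.1, the smallest possible). For Dlx1 and Calb2 the groups overlapped, with differences of 0.23 and 0.68, which turned to -0.26 and -0.26 without rt-PA+Acu replicate 3.

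Whether rt-PA+Acu libraries stood at the Sham level was examined last. No member was called (beside 2.06% of 12775 genes), and Calb1 alone passed the adjusted p, with a fall beside 3.40% of genes that fell. Calb1 was at 63.6, 100.5 and 78.1 CPM in rt-PA+Acu, all below the 132.5 to 139.4 of Sham, a log2 fold change of -0.76 (SE 0.16, adjusted p = 0.037, edgeR's quasi-likelihood test). It passed in 7 of 14 alternatives. Without rt-PA+Acu replicate 3 it was -0.74 (adjusted p = 0.0508), and without Sham replicate 1, 2 or 3 it was -0.75, -0.75 or -0.78 (adjusted p = 0.123, 0.151 and 0.107). In rt-PA Calb1 had been at 88.0, 67.9 and 119.4 CPM, and rt-PA+Acu did not differ from it past the test (-0.19, adjusted p = 0.569). Gad1 and Gad2 did not pass against Sham, with log2 fold changes of 0.60 and 0.48 (adjusted p = 0.141 and 0.135), and without rt-PA+Acu replicate 3 they were at 0.30 and 0.36 (adjusted p = 0.142 and 0.22). Dlx1 and Calb2 had log2 fold changes of 0.25 and 0.65 against Sham with all libraries and of -0.15 and -0.57 without rt-PA+Acu replicate 3. Groups are shared between these comparisons, so their values are set side by side only.

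Of 9 genes for GABA transport, GABA breakdown and glutamine supply 7 fell in Model and none rose, beside 26.6% lower and 27.3% higher over all genes. The vesicular transporter Slc32a1 did not pass. Their median log2 fold change was -0.88, beside 0.01 over all genes. The median was -0.90 with Sham replicate 1 as the only Sham library, beside 0.02 over all genes. Slc6a11, the astrocyte transporter GAT3, was at 63.8 to 67.9 CPM in Sham, 7.17 to 13.4 in Model, 5.61 to 13.8 in rt-PA and 47.5 to 63.6 in rt-PA+Acu. Sham and rt-PA+Acu lay far above both other groups for this gene. Abat, the transaminase that degrades GABA, fell by 0.88 and Aldh5a1, the next enzyme in that path, by 1.23 on the log2 scale in Model rats (adjusted p = 0.000102 and 6.57e-05).

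With acupuncture 5 of the 9 were higher than in rt-PA and none lower, beside 17.0% and 17.7% of all genes. Slc6a11 rose by 2.50 on the log2 scale (adjusted p = 0.00195), Aldh5a1 by 1.09 and Abat by 0.53 (adjusted p = 0.00321 and 0.0328). Slc6a13 (GAT2), which also rose, had 0 to 2 counts per rt-PA library and a mean of 3.23 ± 1.29 CPM in rt-PA+Acu (SD, n = 3), at least 14-fold higher than 3 counts per library. The count was also 5 without rt-PA+Acu replicate 3, beside 20.1% of all genes higher. Slc32a1 is the vesicular GABA transporter that loads GABA into synaptic vesicles and marks inhibitory neurons. It was at 59.5, 80.7 and 70.5 CPM in Sham replicates 1, 2 and 3. The higher values were those of replicates 2 and 3, the libraries with striatal genes. Slc32a1 ran from 53.4 to 63.2 CPM in Model, a log2 fold change of -0.29 from Sham (adjusted p = 0.09, edgeR's quasi-likelihood test). With acupuncture it was 0.34 above rt-PA (adjusted p = 0.124). Astrocytes hold several of these genes, and 7 of 9 astrocyte markers fell in Model and 8 of 9 rose with acupuncture (26.6% and 17.0% of all genes). The marker Gfap went the other way in Model, with a rise of 3.10 on the log2 scale. Without rt-PA+Acu replicate 3, 7 rose with acupuncture and 1 fell, beside 20.1% and 21.0% of all genes. The part of astrocytes in the GABA handling genes was not tested.

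**Figure D5:**
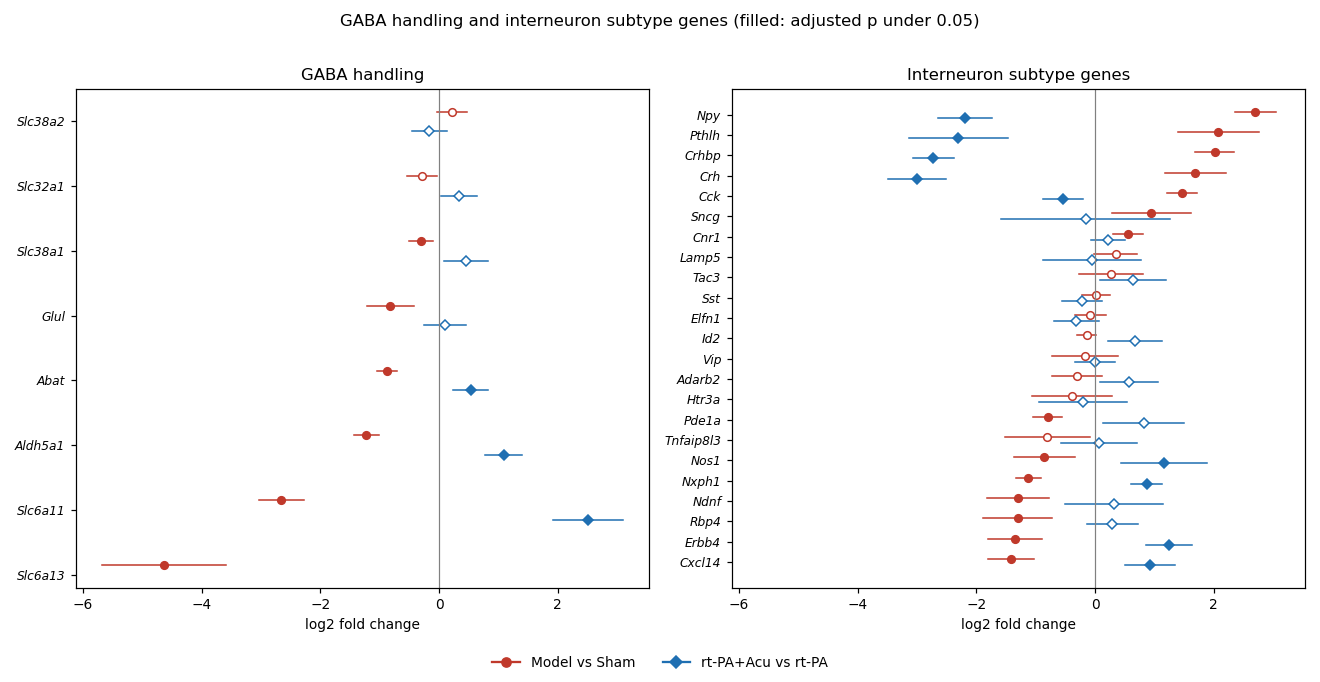
Log2 fold changes with bars of 1.96 SE on either side for 8 GABA handling genes and 23 interneuron subtype genes, for Model vs Sham (circles) and for rt-PA+Acu against rt-PA (diamonds), with filled symbols for an adjusted p under 0.05. The comparisons share no library. Slc6a13 has no diamond because its rt-PA libraries held 0 to 2 counts.

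Of 23 peptide and other genes of interneuron classes 7 rose and 7 fell in Model (median log2 fold change -0.14), shares near the 27.3% and 26.6% over all genes. Neuropeptide Y (Npy), a peptide of somatostatin and neurogliaform interneurons, was at 23.4, 29.2 and 25.9 CPM in Sham and at 197.0, 182.5 and 127.1 in Model, a log2 fold change of 2.7 (adjusted p = 2.25e-05). Pthlh, which encodes parathyroid hormone-like hormone, rose by 2.08, Crhbp, the binding protein of corticotropin-releasing hormone, by 2.02, and Cck, cholecystokinin, by 1.47 on the log2 scale. Cxcl14, a chemokine gene of interneurons from the caudal ganglionic eminence, fell by 1.41 and Erbb4, the neuregulin receptor of parvalbumin cells, by 1.35. The peptides that name the main classes other than parvalbumin did not pass, with somatostatin (Sst) at 0.02 and Vip at -0.17.

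Adding acupuncture to rt-PA went with lower levels of several peptide genes. Npy was at 21.7, 31.6 and 37.7 CPM in rt-PA+Acu against 164.6, 112.4 and 137.6 in rt-PA, a log2 fold change of -2.19 (adjusted p = 0.00134). Crh fell by 3.00, Crhbp by 2.72 and Pthlh by 2.30 on the log2 scale, while Erbb4 rose by 1.25. Of the 23 genes 4 rose and 5 fell against rt-PA, near the 17.0% and 17.7% over all genes. Without rt-PA+Acu replicate 3, 3 of 24 rose and 4 fell, beside 20.1% and 21.0%. Crh ended below Sham, with a log2 fold change of -1.75 in rt-PA+Acu vs Sham (adjusted p = 0.0295).

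Among 13 other transcription factors of the lineage 5 fell and 2 rose in Model, beside 26.6% lower and 27.3% higher over all genes. With Sham replicate 1 as the only Sham library, where the Model libraries alone give the spread, 3 fell and 0 rose (12.1% and 10.8% of all genes). Satb1, which matures interneurons that Lhx6 specifies, fell by 1.47, Sp9, which acts beside the Dlx genes, by 1.39 and Etv1 by 1.05 on the log2 scale. With acupuncture 3 of 12 rose and 1 fell, beside 17.0% and 17.7% of all genes. Satb1 rose by 1.22 and Etv1 by 1.24. Of 9 tested fast-spiking genes, which accompany parvalbumin cells, 2 fell and 1 rose in Model, beside 26.6% and 27.3% of all genes. The potassium channel genes Kcnc1 and Kcnc2 fell by 0.61 and 0.51, and Acan, the aggrecan of perineuronal nets, rose by 2.78. The other 6 passed in neither direction.

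Of 13 tested relatives of calbindin and calretinin in the EF-hand family of calcium-binding proteins 8 fell in Model and none rose. Over all genes 26.6% fell and 27.3% rose. The median log2 fold change was -0.72, and the falls were led by Necab2 with 1.84 and Necab3 with 1.28. The median was -0.49 over 14 genes with Sham replicate 1 as the only Sham library, beside 0.02 over all genes. With acupuncture 6 of 14 rose and none fell, beside 17.0% and 17.7% of all genes, and without rt-PA+Acu replicate 3 the rises were 10 of 14, beside 20.1%. In the reelin pathway 5 of 11 genes rose and 2 fell in Model, none of them by a log2 fold change beyond 1, beside 27.3% higher and 26.6% lower over all genes. With Sham replicate 1 as the only Sham library 1 rose and 2 fell, on the spread of the Model libraries alone (10.8% and 12.1% of all genes). The kinase Cdk5 and the activator Cdk5r1 fell by 0.82 and 0.94 in Model, while the receptor Vldlr, the adaptor Crkl and the kinase Fyn rose by 0.39, 0.43 and 0.57. In rt-PA vs Model 0 genes of these 6 lists passed the adjusted p.

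The genes whose CPM followed a member most closely over the 12 libraries were taken by Pearson's r among 12745 genes at a mean of at least 1 CPM. These are descriptions, since the libraries fall into groups. For Gad1 they were Cct6a (0.981), Snrnp200 (0.979) and Rnf2 (0.974), and for Gad2 Nom1 (0.971), Asns (0.951) and Helz (0.95). Calb2 was closest to Lpin2 (0.948), Cpeb4 (0.946) and Cd24 (0.923), of which Lpin2 was also among the 3 closest to Dlx1 (0.944). Dlx6 was closest to Rasd2 (0.9), a gene of striatal neurons, and to Slc32a1 (0.886).

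Some of the loci share ground with other transcripts. In the RefSeq annotation of GRCr8, Dlx1, Dlx6, Lhx6 and Reln each overlap a long non-coding RNA gene, and Gad1, Gad2, Calb1 and Calb2 overlap no annotated gene. Reln also overlaps a pseudogene and the protein-coding gene Elobl5. The library kit marked strand, but whether counting used it is not stated, so reads of Dlx1, Dlx6, Lhx6 and Reln cannot be told apart from those of the overlapping transcripts.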

How the data were processed

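Poly(A) RNA was taken from the cerebral cortex of 12 rats and made into 1 library each, and the deposited labels gave the groups. The authors aligned read pairs to mRatBN7.2 with STAR 2.7.10a and made the deposited raw counts per gene symbol with Salmon 1.9.0 and the Ensembl annotation. The submitters' processing notes also name featureCounts 2.0.1. The adapters carried molecular identifiers, but their use in counting is not stated, so a floor of 3 counts covers counting error only. The members and gene lists were chosen with earlier results of these data known.

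Tests were run with edgeR 4.0.16 in R 4.3.3 (limma 3.58.1), DESeq2 1.42.0 served as an alternative, and matplotlib 3.10.9 in Python 3.11.15 drew the plots. TMM factors over all 12 libraries lay between 0.9488 and 1.078. Every comparison used the 6 libraries of its groups and the genes that pass filterByExpr, with edgeR's quasi-likelihood test and Benjamini-Hochberg adjustment over all genes tested. Calls needed an adjusted p under 0.05 and a log2 fold change beyond 1 in size. SE is the absolute log2 fold change divided by the square root of F. Values relative to marker genes were differences in log2 CPM (prior count 2) from the markers' mean in the same library, compared by the exact two-sided permutation test. The code was tested on simulated data.

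Genes named are the 8 members, at most 2 rises and 2 falls per gene list and comparison, list genes with a defined role, and the 3 genes most similar to a member. Values of 2 list genes are not reported here, though list counts and medians include them. Groups of 3 were not screened for outlying samples. The alternatives were DESeq2, other size factors, other filters, 1 fit over all libraries, a replicate block, and leaving out libraries. Replicates differed by more than sampling noise.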

Additional observations from a re-analysis of the deposited data

How the results depend on the processing

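Of 432 refitted log2 fold changes of single genes, 369 kept both their direction and their side of the threshold. The Model vs Sham counts of 3 called and 5 passing genes stayed within 1.5 times under each alternative that kept at least 2 Sham libraries; with Sham replicate 1 alone, a fit whose spread comes from the other group only, 2 passed. In rt-PA vs Model the count stayed at 0 under every alternative run. For rt-PA+Acu against rt-PA, library size alone in place of TMM gave 1 called and 1 passing gene, and leaving out 1 library gave 0 to 2 of each. For rt-PA+Acu against Sham, 1 fit over all 12 libraries gave 0 passing genes, so did the replicate block and Sham replicate 1 alone, and leaving out 1 library gave 0 to 2. The cause of these losses was not tested, beyond the smaller number of libraries. Same-numbered libraries did not deviate together, with correlations from -0.121 to 0.146. These values gave no sign that the numbers pair rats, and cannot exclude it, since other differences between libraries enter them. With the replicate block 2 genes were called and 4 passed in Model vs Sham, and 1 was called and 2 passed for rt-PA+Acu against rt-PA.

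Directions turned for values near 0 or resting on 1 library. In Model vs Sham, Lhx6 was 0.03 with library size alone and -0.158 to 0.147 when 1 library was left out, and Reln was -0.117 with Sham replicate 1 alone. In rt-PA vs Model, leaving out 1 library gave -0.099 to 0.128 for Gad1, -0.184 to 0.126 for Gad2, -0.19 to 0.108 for Lhx6, -0.46 to 0.032 for Calb1, -0.41 to 0.074 for Calb2, -0.201 to 0.132 for Reln and -0.136 to 0.279 for Dlx1. Gad2 was -0.003 there with DESeq2, -0.003 with RLE size factors and -0.001 in 1 fit over all libraries. Lhx6 was 0.046 with library size alone, 0.001 with at least 10 counts in every library and 0.013 with the replicate block, and Reln was 0.02 with library size alone. For rt-PA+Acu against rt-PA, leaving out 1 library gave -0.37 to 0.05 for Calb1 and -0.038 to 0.546 for Reln. Against Sham it gave -0.568 to 1.052 for Calb2 and -0.147 to 0.494 for Dlx1, and with Sham replicate 1 alone Dlx1 was -0.044 and Dlx6 0.448.

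Relative to excitatory markers, Calb1 in Model vs Sham was -0.2 with pan-neuronal markers, and Dlx6 was 0.945 with Sham replicate 1 alone. Leaving out 1 library gave -0.388 to 0.002 for Calb2, -0.276 to 0.182 for Dlx1 and -0.56 to 0.302 for Dlx6. For rt-PA+Acu against rt-PA it gave -0.255 to 1.241 for Calb2, -0.264 to 0.574 for Dlx1 and -0.721 to 0.124 for Dlx6, which was 0.388 with pan-neuronal markers. Dlx6 had 20 to 114 counts per library and Calb2 34 to 455, which limits their precision most.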

Other observations

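Among the 14 excitatory neuron markers the Model vs Sham log2 fold changes ran from -3.21 for Neurod6, a transcription factor of pyramidal neurons, to 1.02 for Slc17a6, a vesicular glutamate transporter, so the mean of these markers, which served as one reference for the interneuron genes, covers genes that moved in opposite directions. The cortical layer factor Cux2 was at -1.72 and Tbr1 at -1.70, while Fezf2 was at -0.32 and did not pass the test (adjusted p = 0.000159, 0.00108 and 0.16, edgeR's quasi-likelihood test). With acupuncture Neurod6 was 2.71 and Cux2 1.89 above rt-PA on the log2 scale (adjusted p = 0.00361 and 0.00298), and Fezf2 was at 0.00. These genes were picked after their values were seen.

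The 8 neuroblast markers with counts in the table, which include Dlx2, summed to 334.6 CPM in rt-PA+Acu replicate 3 and to between 124.5 and 197.9 CPM in the other 11 libraries. Of the 8 thalamic markers 6 passed the filter on low counts in Model vs Sham. Of these 3 rose and 1 fell, beside 27.3% and 26.6% of all genes. Gbx2 and Shox2, which did not pass that filter, held 0 to 7 and 0 to 3 counts per library. Whether any piece held thalamus was not tested. The thalamic sum was 236.5 to 277.5 CPM in Model and 76.3 to 89.2 CPM in Sham. Most of the Model sum was Prkcd, a protein kinase C gene, at a mean of 154.1 CPM in Model and 15.3 in Sham. Its log2 fold change was 3.35 (adjusted p = 7.47e-06, edgeR's quasi-likelihood test). Another of the 3 rises, Slc17a6, is also one of the excitatory markers. The marker that fell was Tcf7l2, with a log2 fold change of -0.90 (adjusted p = 0.00507, same test).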
